A study of Mus musculus with 43 samples.

Results

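The comparison is of newborn mouse ovaries that carry no working copy of Foxl2 with wild-type ovaries of the same age. All arrays titled as Foxl2-null ovary or wild-type ovary at birth (P0) were taken, 3 of each, so that 6 of the 43 arrays in the series enter it, and every probe set of the array was tested. Each array was hybridised with RNA from the whole gonads of an individual mouse, freed of adjacent tissue, on a background mixed from C57BL/6J, NIH-Swiss/BC and CD1. The null allele is constitutive, absent from every cell from conception, and the wild-type animals came from the same litters as the nulls. 3 further pairs of groups, and testes, were used beside it. Foxl2-null and wild-type ovaries at E16 (3 and 3 arrays) gave the effect before birth. Foxl2-/- KitWvWv against Foxl2+/- KitWvWv ovaries at P0 (3 and 3) gave the effect in ovaries with few germ cells, the Wv allele of the receptor Kit being hypomorphic; the germ cell helicase Ddx4 had a signal of at most 0.195 in the Foxl2+/- ones, on the scale given below, against 1.06 to 1.35 in wild type. Foxl2-/- Wnt4-/- against Foxl2+/- Wnt4-/- ovaries at P0 (3 and 3) gave it in ovaries without Wnt4. In both of these the control animals already lacked 1 copy of Foxl2. Testes at P0 served as a scale for testis genes, and since they came from Wnt4-null males their own differentiation may be incomplete.

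FOXL2 is a forkhead transcription factor of the ovary's supporting cells, the pre-granulosa cells that surround each oocyte when germ cell cysts break down into primordial follicles around birth. A follicle is bounded by a basement membrane laid down by its granulosa cells, and as it starts to grow the granulosa cells divide, signal through activin, inhibin and anti-Müllerian hormone, and take on nuclear receptors and steroid enzymes of the estrogen pathway. The oocyte inside makes the zona pellucida, the growth factors GDF9 and BMP15, and a store of maternal proteins for the embryo. In the testis the same supporting lineage becomes Sertoli cells, driven by SOX9 and DMRT1. Loss of FOXL2 is known to arrest follicles and to cause premature ovarian failure in people and in mice.

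Values are given below as signal, the array intensity divided by the mean intensity that all arrays share, so that 1 is the mean probe set. The median probe set had a mean signal of 0.256. Differences are on a log2 scale after adding 0.01 to each signal, which understates changes of dim genes, and are written null minus wild type with their standard error. A gene is represented by its brightest probe set, and was called where limma's adjusted p, fitted on all arrays and adjusted over 45007 probe sets, was below 0.05. The 6 arrays were alike in overall brightness, with median signals of 0.197 to 0.224 in wild type and 0.199 to 0.209 in nulls, and within-group correlations of 0.958 to 0.972 and 0.966 to 0.971.

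Foxl2 itself gave signals of 16.8, 14.7 and 16.4 in the wild-type ovaries and 1.36, 2.42 and 1.84 in the nulls. The groups lay far apart, with a difference of -3.12 ± 0.51 (adjusted p = 0.000346, limma). A dimmer probe set of the gene averaged 0.376 in wild type and 0.000198 in nulls, a difference of -5.21. Where either probe set lies relative to the deleted part is not given in the sources used here, so the signal left on the brighter one was not assigned to a transcript. The tissue also matched its label: the wild-type ovaries held the oocyte factor Figla at 4.78 to 8.89, against 0.0201 to 0.0779 in P0 testis, and Dmrt1 at 0.0252 to 0.0636, against 4.26 to 5.53.

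At birth 150 of 18184 genes were called (0.825%), of which 105 were lower in the null ovary (0.577%) and 45 higher (0.247%). In 147 of the 150 every wild-type array lay on one side of every null array, as was so for 12.5% of all genes. Counted over probe sets, 203 were lower (0.451%) and 69 higher (0.153%). The genes that were lower included nuclear receptors of granulosa cells (Nr5a2, Esr2), the activin and TGF-beta transducer Smad3, steroid enzymes (Akr1c14, Hsd3b1), and extracellular matrix and cell surface genes (Col8a1, Thbs1, Ntn4, Clstn2, Sdc4). The genes that were higher included Nr0b1, a nuclear co-repressor of steroidogenic genes, and Dhh, Cst9 and Cldn11, which Sertoli cells express. The median difference over all genes was -0.03. In 39 of the 150 genes the brighter group's mean lay at or below the median probe set, where a small signal moves the log2 value most.

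Besides Foxl2 itself, the nuclear receptors Nr5a2 and Esr2 were the only granulosa transcription factors called lower. A promoter of each is shown here because the deleted factor binds DNA directly. They are RefSeq sequences of build GRCm38.p6, on the minus strand and written 5′ to 3′ along the gene, from 250 bases before to 50 bases after the start. The third, of Fam160a1, belongs to a gene described below that was far lower without Foxl2 at birth and not at E16; its capitals mark a match to TGACCTT, part of the DNA sequence that receptors such as NR5A2 bind.
Nr5a2 (chr1:136960399-136960698): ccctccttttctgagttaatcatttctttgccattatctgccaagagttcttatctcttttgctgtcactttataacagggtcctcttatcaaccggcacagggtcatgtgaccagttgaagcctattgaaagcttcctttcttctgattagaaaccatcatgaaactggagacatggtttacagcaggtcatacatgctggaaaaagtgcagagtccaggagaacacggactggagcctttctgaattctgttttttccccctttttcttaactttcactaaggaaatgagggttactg
Esr2 (chr12:76177210-76177509): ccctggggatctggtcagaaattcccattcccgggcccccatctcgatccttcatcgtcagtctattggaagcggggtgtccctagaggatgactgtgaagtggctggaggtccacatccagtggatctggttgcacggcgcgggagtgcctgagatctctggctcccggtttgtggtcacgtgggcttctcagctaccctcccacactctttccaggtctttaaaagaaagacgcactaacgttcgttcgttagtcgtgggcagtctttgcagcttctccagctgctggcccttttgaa
Fam160a1 (chr3:85746160-85746459): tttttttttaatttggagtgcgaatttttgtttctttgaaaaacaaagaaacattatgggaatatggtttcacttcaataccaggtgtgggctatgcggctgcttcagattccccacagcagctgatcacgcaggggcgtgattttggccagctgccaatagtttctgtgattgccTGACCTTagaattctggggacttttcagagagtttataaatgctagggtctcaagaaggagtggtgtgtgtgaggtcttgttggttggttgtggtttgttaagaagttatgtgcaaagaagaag
The letters GTAAACA, a forkhead core, on either strand (TGTTTAC), occurred in none of these 3 windows, and AAGGTCA on either strand (TGACCTT) occurred only in that of Fam160a1. Nr5a2 has a second start, whose window (chr1:136953581-136953880) is not shown and held neither run of letters. Promoter entries were found for 80 of the 105 genes that were lower and 35 of the 45 that were higher, some genes having several starts. GTAAACA was held by 3 of the 98 promoters of lower genes (3.06%) and by 0 of the 43 of higher genes, beside 3.65% of 32851 promoters in all. AAGGTCA was held by 5 (5.1%) and 1 (2.33%), beside 4.72%. A match is only a run of letters in the window, neither a binding site nor a cause, and a window without one says nothing of the factor.

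Nr5a2 (LRH-1) is an orphan nuclear receptor of granulosa cells, needed in adult females for ovulation. Its signals were 0.586, 0.449 and 0.422 in wild type and 0.0243, 0.059 and 0.0964 in nulls. No array overlapped, the difference was -2.96 ± 0.43 (adjusted p = 5.61e-05, limma), and all 4 probe sets of the gene were called, at -2.49 to -3.98. In whole ovaries fewer cells of a type and less RNA per cell cannot be told apart, here and for every gene below.

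Esr2, the estrogen receptor beta that predominates in granulosa cells, was dim throughout, at 0.113, 0.188 and 0.214 in wild type and 0.000478, 0.00907 and 0.0547 in nulls. The difference was -2.91 ± 0.51 (adjusted p = 0.000812, limma). Null arrays 1 and 2 lay below the 0.01 added before the log, and the difference ran from -3.855 to -1.678 over the alternative settings. It was no longer called when the 6 arrays were fitted alone (adjusted p = 0.102), a fit with far less information on the spread. In the opposite direction, Nr0b1 (DAX1) had 0.221, 0.269 and 0.33 in wild type and 0.795, 1.46 and 1.05 in nulls, a rise of 1.95 ± 0.32 (adjusted p = 0.000335). Smad3, which carries activin and TGF-beta signals to the nucleus, gave 8.33, 8.45 and 10.7 in wild type and 4.29, 4.07 and 3.75 in nulls. The gene was bright, every null array lay below every wild-type array, and the difference of -1.17 ± 0.12 had a small error (adjusted p = 1.82e-07).

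Of the 24 granulosa transcription factors measured, 3 were lower (Foxl2, Nr5a2, Esr2) and 1 higher (Nr0b1), beside 0.577% and 0.247% of all genes. Foxl2 is the deleted gene, so its fall follows from the genotype. The median of the list was -0.02, close to that of all genes, and the remaining 20 did not pass. Runx1, a factor of the fetal supporting lineage, had a difference of 0.69 ± 0.26 (adjusted p = 0.409).

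Of 16 listed enzymes of estrogen and other steroid metabolism, 12 had a gene value. Among these 2 were lower and 1 was higher, beside 0.577% and 0.247% of all genes. The list's median was -0.70. Of the 12 values 8 were negative, beside 9896 of 18184 over all genes. Aromatase (Cyp19a1) was not among the genes given a value by the annotation used, so its change was not read here. The study reports its upregulation as strongly reduced in Foxl2-null ovaries. Akr1c14, an aldo-keto reductase that acts on steroids, had 2.92, 3.61 and 3.74 in wild type and 1.39, 1.19 and 1.45 in nulls, a difference of -1.34 ± 0.23 (adjusted p = 0.000535, limma). Hsd3b1, which makes progesterone from pregnenolone, had 1.6, 1.7 and 2.04 against 0.714, 0.62 and 0.392. Both genes separated the groups completely. The difference of Hsd3b1 was -1.65 ± 0.35 (adjusted p = 0.00886), and its call was lost under quantile normalization (adjusted p = 0.112) and without wild-type array 3 or null array 3 (0.0804 and 0.102).

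Hsd17b11, a lipid droplet dehydrogenase, was the enzyme that was higher, at 3.56, 2.65 and 3.31 in wild type and 5.47, 7.89 and 5.15 in nulls. The difference was 0.94 ± 0.20 (adjusted p = 0.00855, limma). The call was lost without null array 2 or wild-type array 2 (0.136 and 0.106). It was also lost under median scaling (0.052) and in the fit of the 6 arrays alone (0.0983). Hsd17b1, which makes estradiol from estrone in granulosa cells, did not pass at -1.70 ± 0.47 (adjusted p = 0.0893). Its wild-type signals of 0.0886, 0.135 and 0.058 all lay above those of the nulls, 0.014, 0.0167 and 0.0343, and all 6 were dim. Akr1c18, a progesterone-inactivating enzyme, likewise missed the threshold at -2.67 ± 0.73 (0.0891).

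The secreted signals of granulosa cells and their receptors showed few differences. Of 33 genes of activin, inhibin, AMH and BMP signalling, Smad3 alone was called, beside 0.825% of all genes. The list's median was -0.02. Fst (follistatin, the activin-binding protein) had 1.08, 0.92 and 0.895 in wild type and 0.425, 0.808 and 0.739 in nulls. These did not overlap, yet the difference of -0.59 ± 0.33 was within the spread of the fit (adjusted p = 0.761, limma). Inha, the inhibin alpha subunit, had -0.77 ± 0.33 (0.546). Inhbb, the beta-B subunit, had 0.59 ± 0.21 (0.36). Amh and its receptor Amhr2 differed by -0.16 ± 0.19 (0.975) and 0.43 ± 0.24 (0.761).

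None of 13 hormone and growth factor receptors and their partners passed, with a median of -0.07. Kitl, the ligand through which granulosa cells reach the oocyte's Kit receptor, had 4.35, 3.17 and 4.59 in wild type and 2.87, 3.74 and 2.27 in nulls, so that the groups overlapped, with a difference of -0.46 ± 0.25 (adjusted p = 0.758, limma). Fshr, the follicle-stimulating hormone receptor, was dim on all 6 arrays, at 0.0172 to 0.0396, and no change was detectable at that level. None of 12 Notch pathway genes passed either, although 9 of their 12 values were negative (median -0.24). Hey2, a Notch target, had -1.11 ± 0.46 (0.509), and the ligand Jag1 -0.52; Notch2, a receptor on granulosa cells, was at 0.01, a value whose sign turned under quantile normalization.

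The basement membrane, matrix and cell contact genes held the most calls of the gene lists counted: 9 of 24 were lower and none was higher, beside 0.577% and 0.247% of all genes. The list's median was -0.47, and 19 of the 24 values were negative. Many of its members were picked with the study's own results on these arrays in view, so the count is not independent evidence of a direction. The called members were matrix proteins, matrix binders and cell surface proteins.

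Col8a1, a short-chain network-forming collagen, gave 1.36, 1.91 and 1.9 in wild type and 0.0623, 0.0117 and 0.0795 in nulls. It had the most negative difference of the 150 called genes, -5.04 ± 0.65 (adjusted p = 7.02e-06, limma). Thbs1 (thrombospondin 1, an anti-angiogenic matrix protein) gave 2.19, 1.32 and 2.28 against 0.159, 0.41 and 0.471, a difference of -2.54 ± 0.40 (adjusted p = 0.000162). Its relative Thbs2 had -1.25 ± 0.25 (0.00395). Both thrombospondins kept the groups apart.

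Ntn4, a netrin that binds laminin, gave 0.989, 0.632 and 0.776 in wild type and 0.211, 0.144 and 0.153 in nulls, a difference of -2.17 ± 0.42 (adjusted p = 0.0031, limma). Clstn2, a cadherin-related membrane protein, gave 1.12, 1.22 and 1.28 against 0.179, 0.46 and 0.264 (-2.07 ± 0.32, adjusted p = 0.000144). Sdc4, a heparan sulfate proteoglycan of the cell surface, was brighter, at 10.4, 8.2 and 9.77 against 3.11, 4.47 and 3.81 (-1.32 ± 0.17, adjusted p = 7.02e-06). In all 3 genes the lowest wild-type array lay well above the highest null array.

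The protease Adamts16 (-1.36 ± 0.19, adjusted p = 3.2e-05, limma), the fibrillin Fbn2 (-0.95 ± 0.17, 0.00102) and the laminin chain Lama1 (-0.86 ± 0.21, 0.036) completed the 9. A dim second probe set of Adamts16 stood at 0.59, and the gene was not called from the median of its probe sets (-0.38, adjusted p = 0.779). Col4a1, Lamb1, Lamc1 and Nid1, further basement membrane chains and nidogen, had uncalled differences of -0.17, 0.10, 0.04 and 0.02. Gpc4, a glypican, was just outside the threshold at -0.53 ± 0.14 (0.0543).

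**Figure D1:**
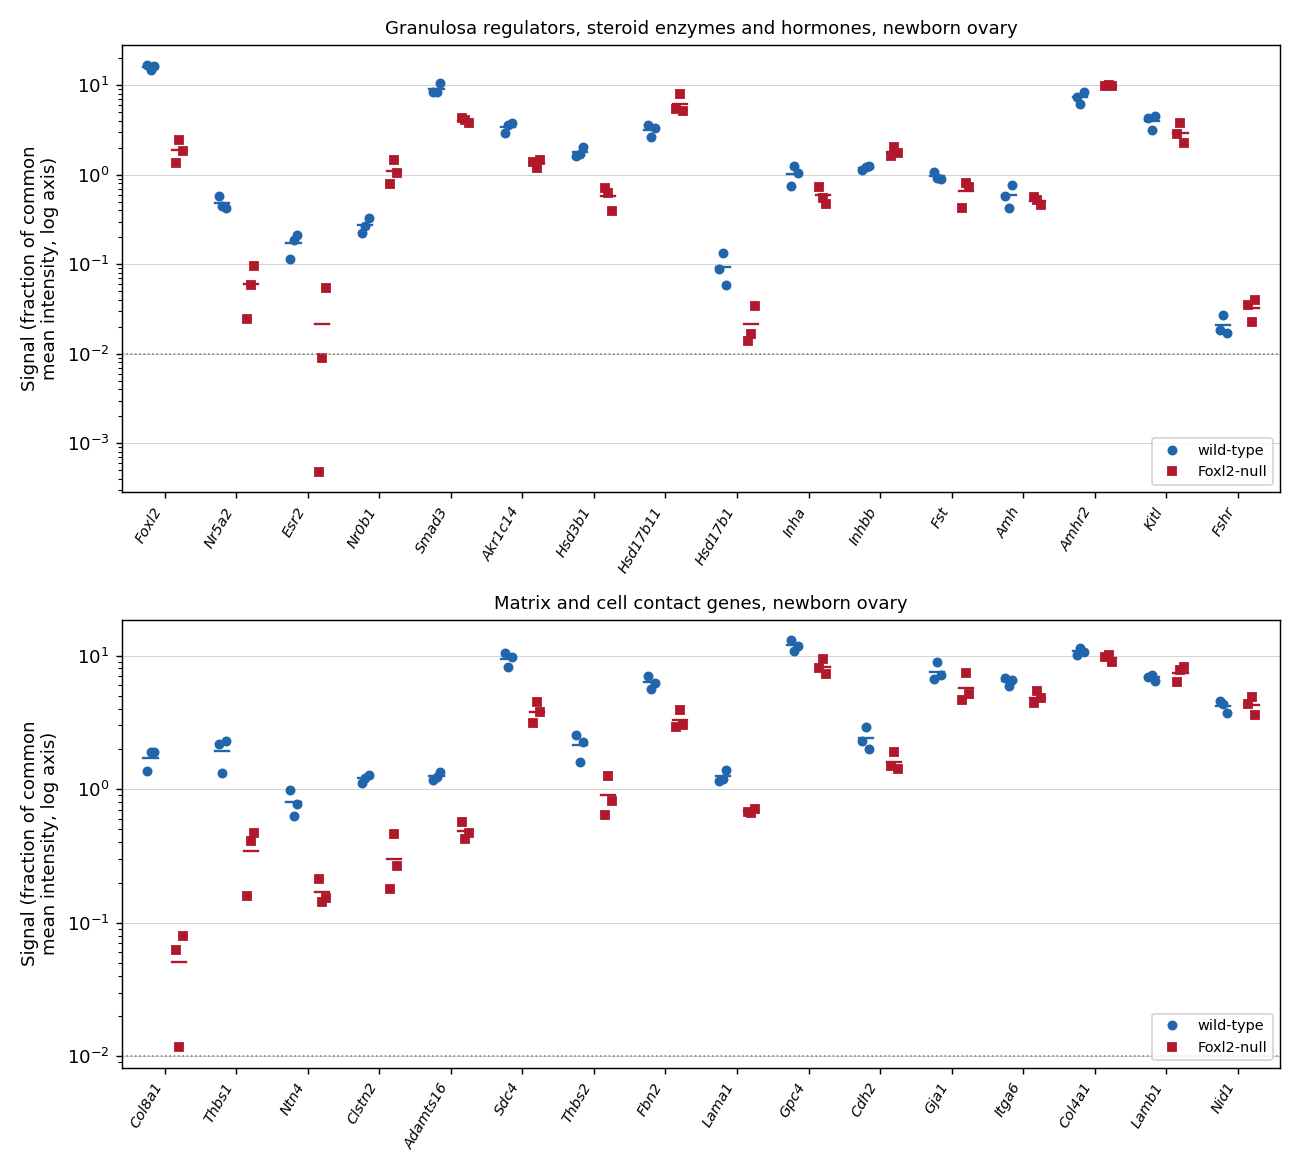
Signal (log axis, array intensity over the common mean) of 16 granulosa genes (top) and 16 matrix and contact genes (bottom) on each of the 3 wild-type (blue circles) and 3 Foxl2-null (red squares) P0 arrays, with bars at the group means and a dotted line at 0.01, the value added before the log. Foxl2, Nr5a2, Esr2 and Col8a1 show wide gaps between the groups, Nr0b1 and Hsd17b11 the reverse order, and Amh, Col4a1 and Nid1 lie together.

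**Figure D2:**
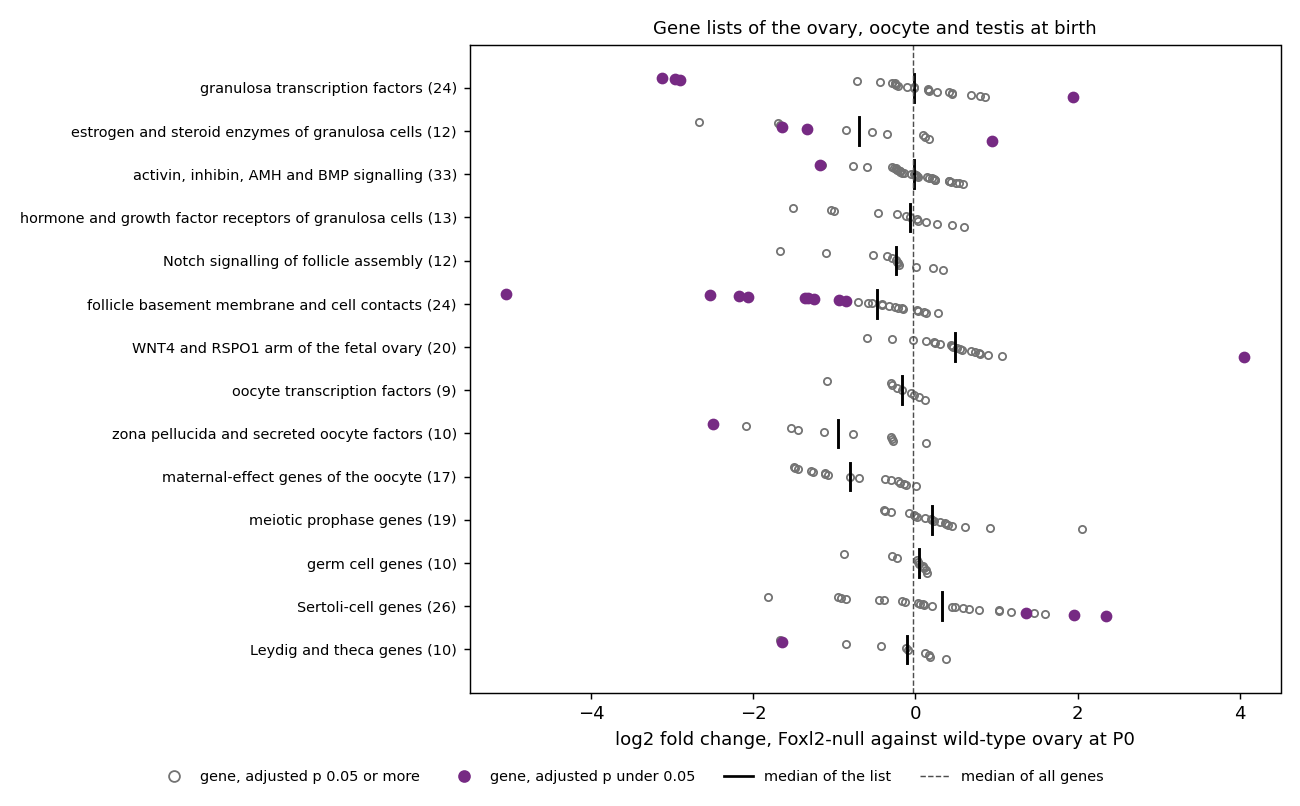
Log2 difference, Foxl2-null minus wild type at P0, of every measured member of 14 gene lists of ovary, oocyte and testis; filled points passed an adjusted p below 0.05, black lines are list medians and the dashed line is the median of all genes (-0.03). The matrix list has 9 filled points, all below 0, and the granulosa transcription factors have both signs around a median of -0.02.

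Other genes with large losses have less settled roles in the follicle. Adamdec1, a disintegrin-like metalloprotease, gave 2.24, 3.99 and 1.35 in wild type and 0.223, 0.158 and 0.168 in nulls, a difference of -3.59 ± 0.40 (adjusted p = 4.17e-07, limma). Slc26a7, an anion exchanger, gave 1.3, 0.801 and 1.26 against 0.0517, 0.166 and 0.0956 (-3.40 ± 0.38, adjusted p = 4.7e-07). Fam160a1 gave 4.68, 4.43 and 5.34 against 1.07, 0.939 and 0.914 (-2.29 ± 0.25, adjusted p = 2.99e-07). For Fam160a1 the wild-type P0 ovary also stood above other ovaries, whose signals were 0.263 to 0.509 in wild-type ovaries at E16, 0.303 to 0.514 in the Foxl2+/- Kit mutants, 0.714 to 0.845 in the Foxl2+/- Wnt4-null ovaries, and above P0 testis, at 0.56 to 0.695.

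Dhrs2, a short-chain dehydrogenase, had 1 wild-type array far from the others, with 0.173, 1.67 and 1.92 against 0.0362, 0.0697 and 0.0753 in nulls. Its difference was -3.63 ± 0.48 (adjusted p = 8.15e-06, limma), and it was not called in the fit of the 6 arrays alone (0.105). Chst9, a sulfotransferase of sugar chains, shared the low wild-type array 1, with 0.24, 0.708 and 0.67 against 0.0751, 0.0295 and 0.0347 (-3.22 ± 0.50, adjusted p = 0.000136). The stress-responsive Nupr1 (-2.46 ± 0.31) and the semaphorin receptor Plxnc1 (-1.75 ± 0.21) were tighter, the latter at 2.42, 2.21 and 2.48 against 0.745, 0.714 and 0.639.

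The genes that were higher in the null ovary were fewer and some rested on single arrays. Slc8a3, a sodium-calcium exchanger, gave 0.0434, 0.101 and 0.0779 in wild type and 0.597, 0.839 and 0.619 in nulls, a rise of 3.09 ± 0.42 (adjusted p = 1.86e-05, limma). Gng13, a G protein gamma subunit, gave 0.0623, 0.0755 and 2.39 against 5.92, 4.03 and 2.77, the wild-type array 3 lying close to the nulls. Its rise of 4.04 ± 0.87 (adjusted p = 0.0126) was not shared by the gene's other probe set (-0.28), and in wild-type ovaries at E16 the signals were 3.39 to 5.66. The call was lost without wild-type array 1 or 2 or null array 1 or 2 (adjusted p 0.0504 to 0.184). It was also lost with array weights (0.0872) and in the fit of the 6 arrays alone (0.25).

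The same wild-type array 3 was the highest of its group for Chit1, a chitinase of phagocytes (0.0915, 0.0461 and 0.472 against 1.43, 2.17 and 1.29; 3.52 ± 0.51, adjusted p = 4.55e-05, limma). It was also the highest for Sult1c1, a sulfotransferase (0.00439, 0.00577 and 0.184 against 0.253, 0.368 and 0.194; 2.95 ± 0.63, adjusted p = 0.0118). The call of Sult1c1 was lost without wild-type array 1 or 2 or null array 2 (adjusted p 0.0895 to 0.185), with a 0.2% pseudocount (0.0667), with array weights (0.132) and in the 6-array fit (0.301). That of Chit1 was lost in the 6-array fit (0.0598). Xdh, which makes uric acid, overlapped at wild-type array 3, with 0.0774, 0.0492 and 0.413 against 0.739, 0.845 and 0.389. In all 4 genes wild-type array 3 stood between the other wild-type arrays and the nulls, or among the nulls.

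Of 26 Sertoli-cell genes 3 were higher, none was lower, and the median was 0.32, with 18 of 26 values positive. Over all genes 0.247% were higher, and 8288 of 18184 values were positive. Like the other gene lists, this one was written with earlier results of these data known, so the count is not independent evidence of a direction. Dhh, the desert hedgehog ligand of Sertoli cells, gave 0.0706, 0.0965 and 0.0982 in wild type and 0.568, 0.548 and 0.364 in nulls, a rise of 2.34 ± 0.36 (adjusted p = 0.000157, limma). The signals in P0 testis were 2.99 to 7.64 and in the Foxl2+/- Wnt4-null ovary 2.69 to 3.41, so the null ovary stood well below both. The other probe set of Dhh was at 0.21.

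Cst9, a cystatin of Sertoli cells, gave 0.213, 0.0538 and 0.174 in wild type and 0.531, 0.589 and 0.464 in nulls (1.96 ± 0.45, adjusted p = 0.0235, limma), against 6.45 to 7.33 in testis. Cldn11, a tight junction protein of Sertoli cells, gave 0.695, 0.358 and 0.525 against 1.19, 1.75 and 1.1 (1.36 ± 0.32, adjusted p = 0.0278), which approached the testis range of 1.57 to 2.1. The groups did not overlap for either gene. Both calls were fragile: that of Cst9 was lost without any 1 of the null arrays or wild-type array 2 (adjusted p 0.0556 to 0.34), and that of Cldn11 without null array 1 or 2 or wild-type array 2 or 3 (0.0641 to 0.262). Both were also lost in the 6-array fit (0.121 for Cst9 and 0.101 for Cldn11), and that of Cst9 under quantile normalization (0.0613). When 1 array was left out, the list had from 1 to 5 genes higher and from 0 to 2 lower.

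The leading testis factors did not pass. Sox9 had 0.789, 0.216 and 0.283 in wild type and 0.494, 1.35 and 0.645 in nulls, overlapping, with a difference of 1.03 ± 0.36 (adjusted p = 0.316, limma), against 2.39 to 2.87 in testis. Dmrt1 had 1.03 ± 0.49 (0.636) and remained at 0.0628 to 0.172 in nulls, where testis had 4.26 to 5.53. Hsd17b3, which makes testosterone, had 1.46 (0.225), with 0.0928 to 0.157 in nulls and 3.68 to 9.14 in testis. Other members of the list had negative values, such as Ptgds, a prostaglandin D synthase of Sertoli cells, at -1.82 ± 0.46 (0.052), and Clu, at -0.92 ± 0.26 (0.111).

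In the WNT4 and RSPO1 arm of the fetal ovary, 17 of 20 values were positive (8288 of 18184 over all genes) and the median was 0.48. Gng13 alone was called, beside 0.825% of all genes. Wnt4, the ligand that holds off testis development in the early ovary, had 0.726, 0.581 and 0.745 in wild type and 1.24, 1.78 and 1.34 in nulls. Its groups did not overlap, and the difference of 1.07 missed the threshold (adjusted p = 0.0638, limma). Rspo1, the secreted activator of beta-catenin signalling, had 0.43 ± 0.23 (0.736). Wnt11, a further WNT ligand outside that list, was called at 1.63 ± 0.36 (0.0167), with 0.193, 0.186 and 0.122 against 0.462, 0.795 and 0.403, and was lost without null array 2 (0.187) or wild-type array 3 (0.155) and in the 6-array fit (0.0807).

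**Figure D3:**
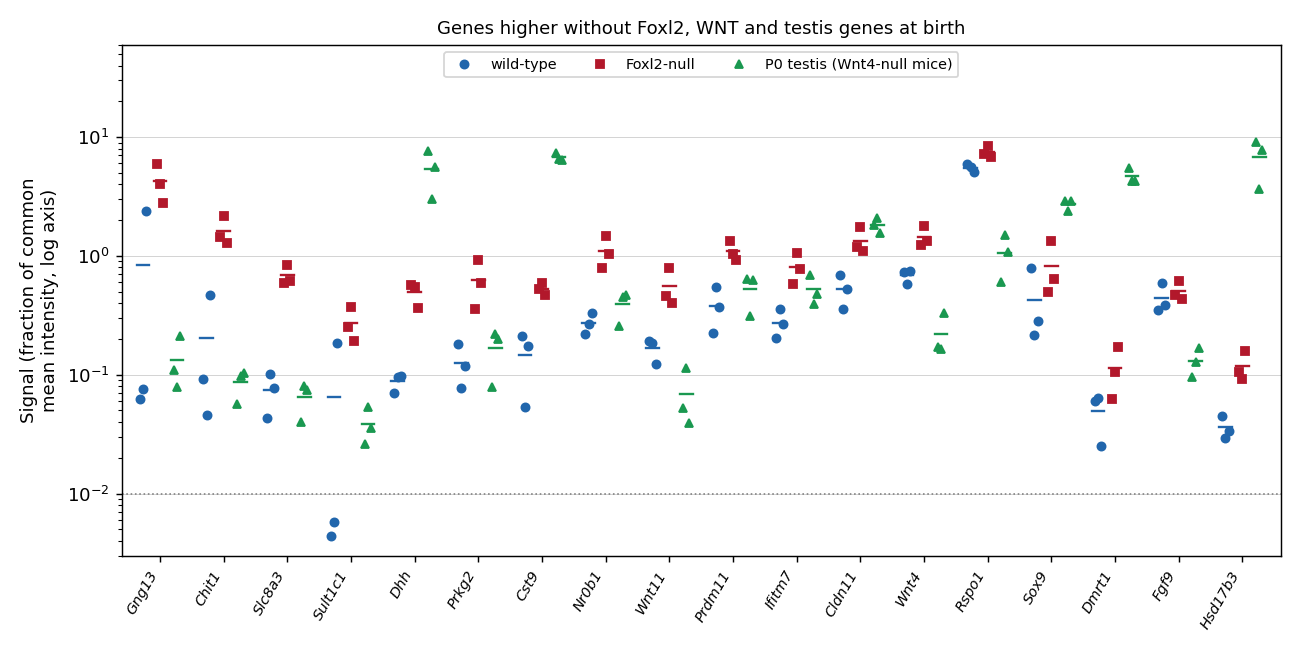
Signal (log axis) of 18 genes, those with the largest rises and WNT and testis genes, on each wild-type (blue circles) and Foxl2-null (red squares) ovary array and in testis from Wnt4-null mice (green triangles), all at P0. Slc8a3 and Dhh separate the ovary groups, wild-type array 3 lies with or near the nulls for Gng13 and Sult1c1, and testis stands far above both ovary groups for Dmrt1, Hsd17b3 and Cst9.

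In the oocyte's own genes, 1 of 36 values over the transcription factor, zona and maternal-effect lists passed, beside 0.825% of all genes. The transcription factors that start the oocyte programme lay together: Figla had 4.78, 8.89 and 6.58 in wild type and 6.45, 3.84 and 6.11 in nulls (-0.29 ± 0.72), and Nobox 4.02, 6.51 and 5.09 against 4.45, 3.61 and 5.19 (-0.23 ± 0.66). The median of the 9 factors was -0.16. Lhx8, needed for oocytes to survive into primordial follicles, had a difference of 0.12.

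The genes of oocyte growth had negative medians, -0.95 over 10 zona and secreted factors and -0.81 over 17 maternal-effect genes, where 16 of 17 values were negative. Oosp1, a protein secreted by oocytes, was the one that passed, with 0.0643, 0.167 and 0.152 against 0.025, 0.00375 and 0.0146 (-2.50 ± 0.54, adjusted p = 0.0129, limma). It is dim, and the call was lost without wild-type array 2 or 3 or null array 2 (0.104 to 0.136). Gdf9, the growth factor that oocytes send to granulosa cells, had 2.6, 6.7 and 5.04 in wild type and 2.32, 2.37 and 3.2 in nulls (-0.77, adjusted p = 0.545).

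Zp2, a zona pellucida protein, showed the same arrangement, with 1.77, 6.64 and 3.96 against 1.23, 1.72 and 2.08 (-1.13, adjusted p = 0.709, limma). Nlrp5, the maternal-effect gene Mater, had 2.13, 18.3 and 8.83 against 5.26, 1.51 and 4.26 (-1.11, 0.768). In each of these genes wild-type array 1 lay with the nulls and wild-type array 2 at the top. Over the zona and maternal lists wild-type array 1 was the lowest of its group in 8 of 10 and 15 of 17 genes, and fell within the null range in 5 and 10 of them, while array 2 was the highest in 9 and 14.

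Summed signal over the maternal-effect list was 43.4, 108.5 and 85.2 in the wild-type ovaries and 50.4, 37.0 and 45.8 in the nulls. Over the zona list it was 9.01, 24.3 and 16.3 against 7.91, 7.94 and 9.63, so that the highest null array lay above wild-type array 1. Without wild-type array 1 the list medians were -1.40 and -1.19 for zona and maternal genes, with 2 and 1 genes lower, and without wild-type array 2 they were -0.58 and -0.42, with none. The part of that array's oocyte content in the genes above, Dhrs2 and Chst9 among them, was not tested. None of 19 meiotic prophase genes (median 0.20) and 10 germ cell genes (median 0.04) passed.

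**Figure D4:**
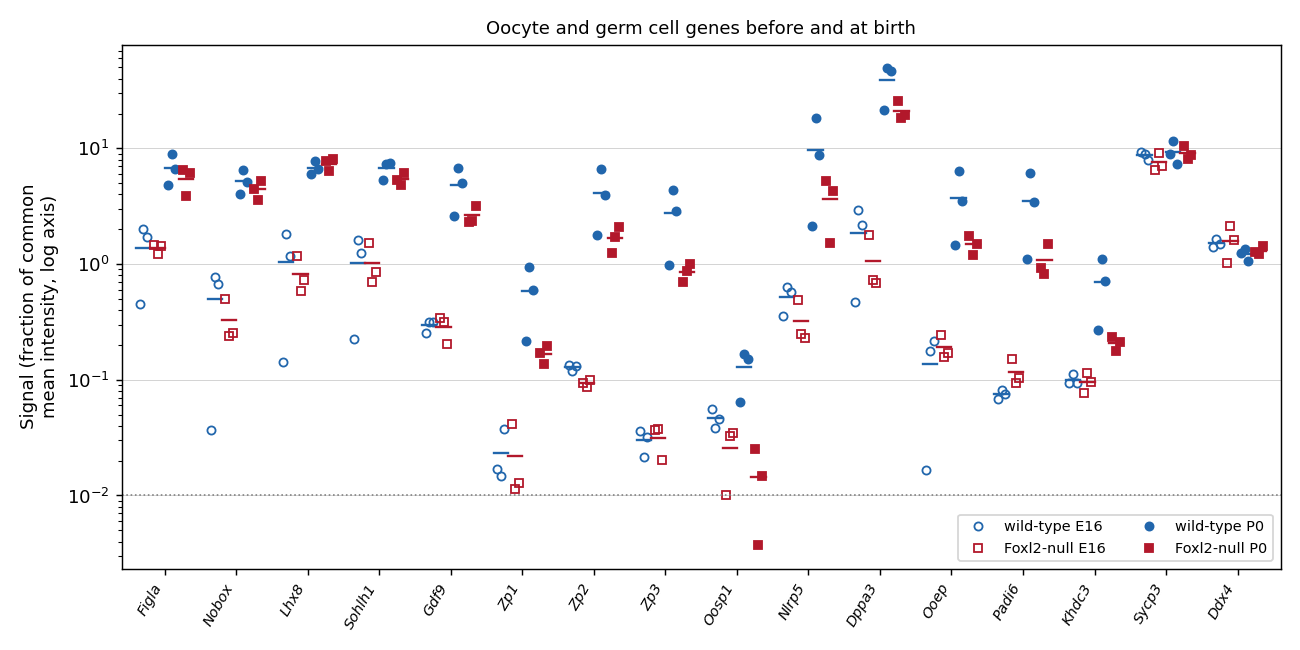
Signal (log axis) of 16 oocyte genes in wild-type (blue) and Foxl2-null (red) ovaries at E16 (open) and P0 (filled), 1 point per array. Zona and maternal genes stand far higher at P0 than at E16 in both genotypes, and the wild-type P0 points spread widely, with the lowest among the nulls.

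For other cell types, the lists for surface epithelium, endothelium, macrophages, erythroid cells, smooth and striated muscle, stroma, oviduct and mesonephric duct, and adrenal held no called gene. Hsd3b1 was the only call among 10 Leydig and theca genes, beside 0.825% of all genes. Summed macrophage signal was 4.11 to 6.14 in wild type and 3.66 to 5.29 in nulls, and that of 11 erythroid genes 1.11 to 2.3 and 1.03 to 1.95. The sums of 2 of these lists did not overlap between the groups, and 12.5% of all genes, taken singly, did not overlap either. Surface epithelium genes summed to 15.6 to 19.1 in wild type and 13.45 to 15.5 in nulls (8 of 10 values negative, median -0.28), and striated muscle genes to 1.55 to 1.82 and 2.12 to 2.93 (median -0.01). Their part in the results was not tested. None of 20 mitosis genes, 10 cell-cycle inhibitors and 12 stress-response genes passed.

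The study's own probe set lists, made on other arrays, were counted over their first 100 probe sets each. Over all probe sets 0.451% were lower and 0.153% higher. Somatic genes of growing follicles had 3 lower and 1 higher (median -0.18). Fetal ovary somatic genes had 3 lower, the deleted Foxl2 among them, and 3 higher, Gng13 among them (median 0.09). Genes of growing oocytes (median -0.15) and of newborn oocytes (median 0.02) had none in either direction.

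From E16 to birth, 5614 genes were called in the wild-type ovary (30.9%) and 3364 in the null (18.5%), comparisons that share arrays with that between genotypes and are set side by side only. In wild type 1858 were higher at P0 (10.2%) and 3756 lower (20.7%), and in nulls 972 (5.35%) and 2392 (13.2%). Of the zona and secreted factors 7 of 10 rose in each genotype, and of the maternal-effect genes 14 of 17 rose and 1 fell in wild type and 11 of 17 rose in nulls. Zp3, Zp2, Nobox and Gdf9 rose by 5.89, 4.71, 4.13 and 3.88 in wild type and by 4.39, 4.0, 3.77 and 3.17 in nulls, each called in both genotypes under all 3 scalings tried. Figla rose by 2.49 in wild type and had 1.96 in the null (adjusted p = 0.0542, limma).

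Among somatic genes, Col8a1 rose by 4.08 in wild type and had an uncalled 1.05 in the null, although the test of the difference between those changes did not pass (adjusted p = 0.48, limma). Nr5a2 rose by 1.23 in wild type (adjusted p = 0.03) and fell by 1.40 in the null (0.022). The null's fall was lost under quantile normalization (0.12) and median scaling (0.07), and the test of the difference between the changes did not pass (-2.63 ± 0.61, adjusted p = 0.124). Esr2 fell by 1.93 in the null (0.00746; 0.0637 under quantile normalization) and had an uncalled difference of 0.76 in wild type, and here too the test between the changes did not pass (adjusted p = 0.26).

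Thbs1 rose in both, by 1.57 and 1.16, and Fst fell in both, by 1.45 and 1.67. The split of these calls moves with the scaling: 66.9% of the wild-type calls were lower at P0 as deposited, 44.6% after quantile normalization and 23.0% after median scaling, and the all-gene medians were -0.27, -0.01 and 0.10. Erythroid genes summed to 9.32, 10.95 and 36.4 in the null E16 ovaries, against 1.57 to 2.21 in wild type at that age. 8 of 11 were called lower at P0 in the null, and their part in changes from E16 in the null was not tested.

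The loss of Foxl2 could be read in 3 other settings that share no array with the one at birth. At E16 120 genes were called (0.66%), in Kit mutant ovaries 208 (1.14%), and in Wnt4-null ovaries 168 (0.924%). Of the 105 genes that were lower at birth, 19 were also called lower at E16 (18.1%, beside 0.264% of all genes), 23 in the Kit mutants (21.9%, beside 0.858%) and 14 in the Wnt4-null ovaries (13.3%, beside 0.511%), with 2 called the other way in the last. Foxl2, deleted in every setting, is among the 105 and among those called lower in each. The median differences of the 105 were -0.33, -0.37 and -0.14. Of the 45 that were higher, 11 (24.4%, beside 0.396%), 7 (15.6%, beside 0.286%) and 3 (6.67%, beside 0.412%) were called higher there.

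Ntn4, Clstn2 and the deleted gene Foxl2 were called lower in all 3 other settings. A further 16, among them Smad3, Sdc4, Akr1c14, Thbs1, Thbs2, Fbn2, Plxnc1, Elovl2 and Ephx2, were called in 2, and 71 of the 105 in none. The genes called in none included Nr5a2, with differences of -0.33 at E16, -0.86 in Kit mutants and -0.98 in Wnt4-null ovaries. Nr5a2 was already present at E16, at 0.143 to 0.243 in wild type and 0.0824 to 0.271 in nulls.

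Tests of the difference between effects called few genes. From E16 to birth the effect of the null allele changed in 7 genes (0.0385%), 6 downward (0.033%) and 1 upward (0.0055%). The effect on Fam160a1 went from -0.23 to -2.29 (adjusted p of the difference 0.00899, limma), that on Adamdec1 from -0.57 to -3.59 (0.021) and that on Plxnc1 from -0.15 to -1.75 (0.02). Adamdec1 gave only 0.0743 to 0.107 in wild-type ovaries at E16. Against the Kit mutants, in which germ cells are few, 4 genes were called (0.022%), all more negative in the ovary with normal Kit: Adamdec1, Dhrs2, Fam160a1 and Mybpc1. In the Foxl2+/- Kit mutant controls Adamdec1 gave 0.0639 to 0.153, Dhrs2 0.105 to 0.16 and Fam160a1 0.303 to 0.514. The effects in the Kit mutants were 0.51, 0.11, -0.09 and, for Mybpc1, 0.52. The part of the control signals in these differences was not tested. Kit mutation and the missing copy of Foxl2 in the controls cannot be told apart in them by the design. For no other gene, Nr5a2 included, was the effect shown to differ there, and none was called when the arrays of those groups were fitted alone with limma, where 812 genes had an unadjusted p below 0.05 against 1127 with all arrays.

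Against the Wnt4-null ovaries 69 genes were called (0.379%), 47 more negative (0.258%) and 22 more positive (0.121%) with Wnt4 present. Akr1c14 had -1.34 ± 0.23 with Wnt4 and 0.17 ± 0.23 without it, a difference of -1.51 (adjusted p = 0.0204, limma). Its signals in the Foxl2+/- Wnt4-null controls were already 0.827 to 1.2, beside 1.19 to 1.45 in Foxl2-null and 2.92 to 3.74 in wild-type ovaries. The part of that lower control signal in the difference was not tested. Sdc4 had -1.32 ± 0.17 and 0.19 ± 0.17 (adjusted p of the difference 0.000895), and Smad3 -1.17 ± 0.12 and -0.24 ± 0.12 (0.00542). Slc8a3 rose by 3.09 ± 0.42 with Wnt4 and had 0.45 ± 0.42 without (0.037). The controls of that pair are Foxl2+/- and had Foxl2 at 5.13 to 5.91, below wild type, whereas the Foxl2+/- Kit mutants had it at 19.5 to 32.6, above wild type. Wnt4 loss and the missing copy of Foxl2 in the controls cannot be told apart in this difference by the design.

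**Figure D5:**
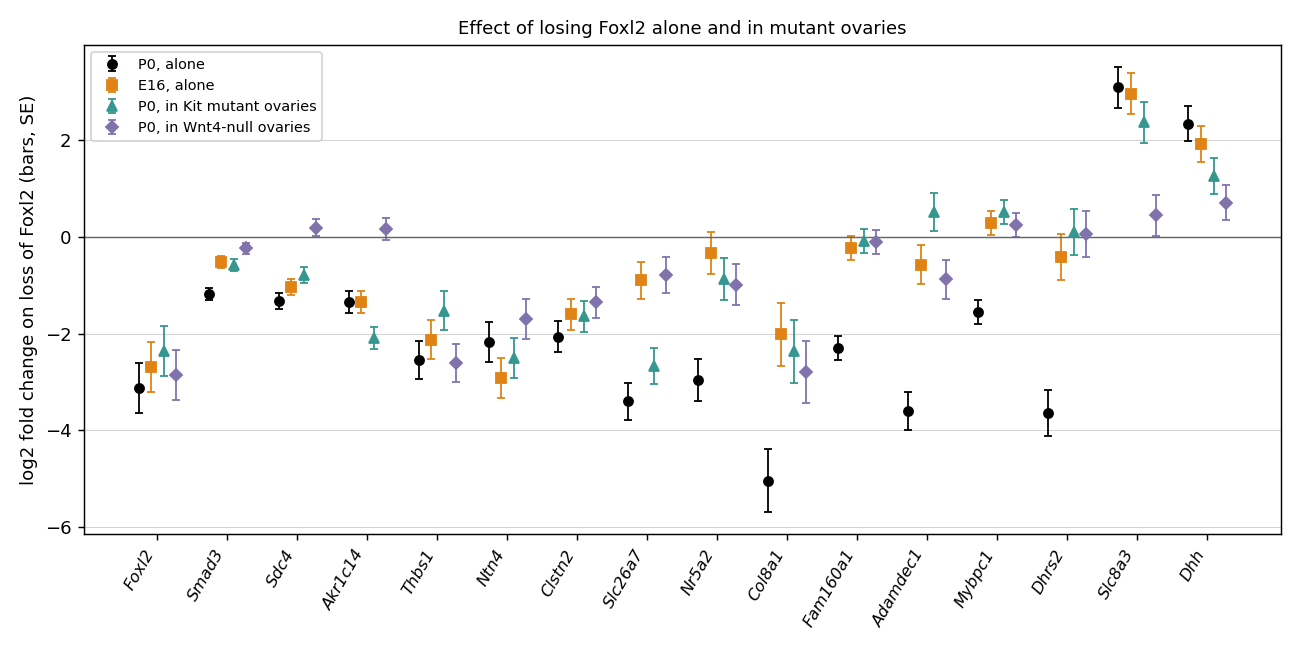
Log2 difference on loss of Foxl2, with standard errors, of 16 genes in 4 settings: P0 alone, E16 alone, P0 in Kit mutant ovaries and P0 in Wnt4-null ovaries. Foxl2 itself lies between -3.12 and -2.36 in all 4, Ntn4 and Clstn2 are below 0 throughout, and Fam160a1 and Mybpc1 are far from 0 only at P0 alone.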

How the data were processed

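RNA was extracted from whole gonads with MELT (Ambion), amplified linearly in 1 round with Pico Ovation and labelled with FL-Ovation (Nugen), and hybridised to Affymetrix MOE430 v.2 arrays. Per the labels, scans were handled with GCOS 1.3. The authors deposited linear PLIER intensity values, scaled so that all 43 arrays share a mean of 15970000. No reads or counts stand behind an intensity, so the number of arrays, 3 a group, limits the precision, and p-values measure the spread between individual mice.

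From the deposited intensities, 64 of 45071 probe sets were left out as controls. limma 3.58.1 (R 4.3.3) was fitted with trend on log2 of intensity plus 1% of the common mean, with a mean for each of 15 groups over all 43 arrays (28 residual degrees of freedom), and p-values were adjusted by Benjamini-Hochberg over 45007 probe sets. All arrays share 1 estimate of the spread. The program Focus that the study used for its tests was not run. GEO's platform annotation gave 34927 probe sets 1 gene symbol, 930 several and 9150 none; 34723 matched RefSeq, and 18184 genes were represented by their brightest probe set. Genes were called at an adjusted p below 0.05.

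The arrays compared, the gene lists and the named genes were chosen with earlier results of these data known. Named genes were Foxl2, the 12 called genes with the highest and the 12 with the lowest difference, taking those whose groups stood apart on all 6 arrays and whose higher mean exceeded that of the median probe set, up to 5 called members of each list, a set of follicle, oocyte and testis genes whether called or not, and up to 5 called genes of each study list; Xdh and other genes named outside this rule were chosen after their values were seen. Alternatives were pseudocounts of 0.2% and 5%, quantile and median scaling, a filter at 5% of the common mean, a fit of only the arrays compared, array weights, a replicate block, the median over a gene's probe sets, and leaving out each array. The scripts were tested on simulated data.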

Additional observations from a re-analysis of the deposited data

Results flagged for a closer look

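A gene is listed here where the effect of losing Foxl2 at birth differed from the effect in another setting by limma's test of the difference itself (adjusted p below 0.05). Values are log2 differences between the effects, the one at birth with normal Kit and Wnt4 minus the other. Of the 69 genes whose effect differed from that in the Wnt4-null ovaries, only those that were also called at birth are listed.

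Between birth and E16 the effect was more negative at birth for Adamdec1 (-3.02), Ltk (-2.28), a receptor tyrosine kinase, Fam160a1 (-2.07), Mybpc1 (-1.84), a myosin-binding protein, Plxnc1 (-1.60) and Ckb (-1.58), brain creatine kinase, and more positive for Xdh (2.78). Ckb was called at E16 (1.03) and not at birth (-0.56), and the erythroid genes that were high in the null E16 arrays are given above. In the Kit mutant ovaries the effect was less negative, or positive and uncalled, for Adamdec1 (-4.11), Dhrs2 (-3.74), Fam160a1 (-2.21) and Mybpc1 (-2.06).

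In the Wnt4-null ovaries the effect was less negative, or positive, for more genes. They included Dhrs2 (-3.69), F12 (-3.17), coagulation factor XII, Adamdec1 (-2.71), Slc26a7 (-2.62), Ptges (-2.40), a prostaglandin E synthase, Cyp2j5 (-2.32) and Fam160a1 (-2.18). Further values were those of Nrg4 (-1.94), Elovl2 (-1.91), a fatty acid elongase, Krt75 (-1.88), Aqp7 (-1.84), a glycerol channel, Gstm7 (-1.82) and Gsta4 (-1.53), glutathione transferases, Mybpc1 (-1.79), Diras2 (-1.73) and Akr1c14 (-1.51). Gstm7 was -0.95 ± 0.17 with Wnt4 and 0.87 ± 0.17 without it, called in opposite directions. Gsta4 was likewise called at -0.87 ± 0.16 and 0.66 ± 0.16.

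The remaining genes of this direction were Chrng (-1.68), Upk2 (-1.67), Rasal1 (-1.65), Sdc4 (-1.52), Bmp2k (-1.11) and Smad3 (-0.94). The effect was more positive with Wnt4 present for H2-Q10 (3.26), Slc8a3 (2.64), Prkg2 (2.43), Ephx2 (2.06), Tnnt1 (1.27) and Ptpre (1.25). Ephx2, an epoxide hydrolase, was lower in both, at -1.54 ± 0.25 with Wnt4 and -3.59 ± 0.25 without. H2-Q10, a class I histocompatibility gene, was called at 1.43 ± 0.34 with Wnt4 and -1.83 ± 0.34 without. In this setting the controls were Foxl2+/-, and the signals of Akr1c14 in them are given above.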

How the results depend on the processing

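With 3 arrays a group, calls of single genes moved more than directions. The 150 genes called at birth became 51 when only the 6 arrays were fitted, 300 with array weights, and 93 to 210 when 1 array was left out (93 without wild-type array 3, 96 without array 2, 210 without array 1). The other alternatives gave 135 to 162. Of these 150, 47 were also called in the 6-array fit and 146 with array weights. The 51 calls of the 6-array fit were 41 lower and 10 higher, beside 105 lower and 45 higher with all arrays in the fit. From E16 to birth, 7 genes became 11 with a 0.2% pseudocount, 11 with the filter on dim probe sets, 64 with array weights, 13 with the median over probe sets and 3 to 29 with 1 array left out (29 without wild-type P0 array 1). Against the Kit mutants, 4 became 0 in limma's fit of those arrays alone, with 812 genes at an unadjusted p below 0.05, 153 with array weights, 7 with the replicate block and 2 to 19 with 1 array left out (19 without wild-type P0 array 1). Against the Wnt4-null ovaries, 69 became 186 with array weights and 42 to 100 with 1 array left out, and the share of calls that were more negative went from 68.1% to 55.0% under quantile normalization and 53.7% under median scaling. Between E16 and P0, leaving out 1 array gave 3614 to 5081 calls in wild type and 2077 to 2705 in nulls; the null's share of lower calls went from 71.1% to 48.0% and 24.6% under the 2 scalings.

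Replicate numbers shared between the genotypes at P0 did not pair the mice: deviations of same-numbered arrays correlated at -0.138 to 0.0792, and with the replicate block 154, 8, 7, 75, 5525 and 3280 genes were called in the 6 comparisons, in the order above with wild type and null last. Among named genes, 563 of 602 values kept their direction and side of the threshold under the alternatives that keep all arrays, 30 lost the call, 6 gained it and 3 turned sign; with 1 array left out these were 349 of 402, 42, 2 and 9. The values that turned were all uncalled except that of Fam184b, which was -1.72 from its brightest probe set and 0.046 from the median of its probe sets. Notch2 became -0.0081 under quantile normalization and ranged from -0.0449 to 0.119 with 1 array left out. Fgf9 (0.20 from its brightest probe set) became -0.0203 from the median of its probe sets. With 1 array left out, Inhba (0.03 with all arrays) ranged from -0.32 to 0.39, Bmp15 (-0.30) from -0.77 to 0.17 and Amh from -0.38 to 0.048. The causes were not tested.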
